A study of Homo sapiens with 4 samples.

Results

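Chromosomes 20, 21 and 22 are small human chromosomes, and the last 2 carry ribosomal RNA genes on their short arms. All broad peaks of H4K5la, the lactylated form of lysine 5 of histone H4, that lie on these chromosomes in 2 deposited peak lists were taken, 374 of 4698 peaks. The list of DNAJC12KO cells contributed 239 of 2755 peaks and the list of WT cells 135 of 1943. The study profiled the mark with ChIP-seq (sequencing of immunoprecipitated chromatin) in the human neuroblastoma line SH-SY5Y and asked how loss of DNAJC12, a co-chaperone gene of the aromatic amino acid hydroxylases, bears on the mark. DNAJC12KO cells had 1 immunoprecipitated and 1 input library, and so did WT cells, 4 libraries in all. The labels give no further allele, treatment or clone for either genotype. Each genotype thus rests on 1 peak list, so no difference between genotypes has a replicate check and no test between them was made.

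Lactylation is the transfer of a lactyl group, derived from lactate, to a lysine, and it links the output of glycolysis to chromatin. On histones it is written and removed by enzymes that also handle acetylation, and it has been found at promoters and enhancers of active genes.

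Each peak carries a fold enrichment, the linear ratio of its pileup to the local background, and a -log10 q, the false discovery rate of the call on a negative log scale. Both are the authors' values, averaged over the peak, and serve here to describe and rank. The files give no read counts, so sequencing depth is unknown, and a place without a peak is a place below the authors' threshold. Shares carry exact binomial (Clopper-Pearson) 95% intervals, which cover counting error only.

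The regions that tie a peak to an annotated start are few, and their sequences are shown because they are the only promoter windows that a peak touched. RefSeq (GRCh38.p14) gives 2077 windows of 300 bases, which run from before an annotated start to 50 bases after it, for 1656 genes on these chromosomes. Peaks of the DNAJC12KO list touched 3 of them, against a background of 0.188% of the windows of all chromosomes. The WT list touched 1, against 0.094%. The DNAJC12KO windows were those of FAM110A (chr20:841032-841331, + strand), of MIR1-1HG, the host of muscle microRNAs (chr20:62550203-62550502, + strand), and of LOC107987303, an uncharacterised record inside ITGB2 (chr21:44910225-44910524, - strand). The WT window was that of LIME1, a T cell adaptor gene (chr20:63735451-63735750, + strand). They are printed 5′ to 3′ on the strand of the gene, with the bases inside the peak in capitals.
FAM110A: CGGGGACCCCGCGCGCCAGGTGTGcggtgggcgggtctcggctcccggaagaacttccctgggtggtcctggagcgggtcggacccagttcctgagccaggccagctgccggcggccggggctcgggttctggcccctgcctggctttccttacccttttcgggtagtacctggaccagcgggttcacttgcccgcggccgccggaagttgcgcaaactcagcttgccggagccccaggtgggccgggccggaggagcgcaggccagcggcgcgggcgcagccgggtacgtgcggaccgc
MIR1-1HG: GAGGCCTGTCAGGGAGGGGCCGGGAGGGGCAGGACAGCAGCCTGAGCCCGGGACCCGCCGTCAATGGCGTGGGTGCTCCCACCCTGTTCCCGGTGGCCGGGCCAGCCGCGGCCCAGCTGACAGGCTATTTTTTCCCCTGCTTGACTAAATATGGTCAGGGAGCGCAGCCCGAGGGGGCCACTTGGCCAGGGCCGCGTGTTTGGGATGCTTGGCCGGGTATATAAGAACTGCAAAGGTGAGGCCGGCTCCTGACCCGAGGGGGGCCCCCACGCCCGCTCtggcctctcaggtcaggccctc
LOC107987303: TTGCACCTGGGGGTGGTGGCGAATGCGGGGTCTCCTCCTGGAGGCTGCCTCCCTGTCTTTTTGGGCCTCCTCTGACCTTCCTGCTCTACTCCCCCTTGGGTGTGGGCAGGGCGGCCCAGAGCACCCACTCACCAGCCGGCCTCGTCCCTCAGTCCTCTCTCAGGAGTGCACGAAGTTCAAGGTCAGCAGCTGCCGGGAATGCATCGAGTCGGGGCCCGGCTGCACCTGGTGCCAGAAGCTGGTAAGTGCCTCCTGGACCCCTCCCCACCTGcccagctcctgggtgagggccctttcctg
LIME1: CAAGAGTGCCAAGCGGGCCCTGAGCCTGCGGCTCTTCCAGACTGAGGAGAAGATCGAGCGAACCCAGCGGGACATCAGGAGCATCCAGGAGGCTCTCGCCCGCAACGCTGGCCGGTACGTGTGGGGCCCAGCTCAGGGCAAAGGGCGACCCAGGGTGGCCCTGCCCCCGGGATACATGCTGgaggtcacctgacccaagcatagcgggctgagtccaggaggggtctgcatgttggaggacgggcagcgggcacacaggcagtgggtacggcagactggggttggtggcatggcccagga

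The overlap was 24 bases at FAM110A (fold 3.69), 278 at MIR1-1HG (fold 3.77), 271 at LOC107987303 (fold 3.97) and 181 at LIME1 (fold 3.90). The windows held 33 CG pairs at FAM110A, 18 at MIR1-1HG, 10 at LOC107987303 and 16 at LIME1. The median over the 2077 windows was 13, so LOC107987303 fell below it. Their GC content was 73.3%, 68.7%, 66.0% and 66.7% in the same order, in all 4 above the median of 60%. The letters GGGCGG, searched on both strands, occurred once in the FAM110A and once in the LOC107987303 window, and 44.3% of the windows hold them. CCAAT (31.2% of windows), TATAAA (11.6%) and CACGTG (8.28%) had no match on either strand of the 4 windows. These matches describe the letters only.

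On chromosome 20, peaks of both lists lay around genes that hold microRNAs of striated muscle. MIR1-1HG holds the hairpins MIR1-1 (chr20:62554306-62554376) and MIR133A2 (chr20:62564912-62565013), and MIR499A (chr20:34990376-34990497) lies inside MYH7B, a myosin heavy chain gene. Their main mature products are printed with the seed, bases 2 to 8, in capitals. They were chosen after the values were seen, because 2 of the strongest WT peaks lie beside them.
hsa-miR-1-3p: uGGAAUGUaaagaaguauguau
hsa-miR-133a-3p: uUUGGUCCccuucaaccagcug
hsa-miR-499a-5p: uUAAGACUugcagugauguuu

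The 3 seeds differ from each other. A WT peak (chr20:62553749-62554027, fold 4.59) ended 278 bp before MIR1-1. Another WT peak (chr20:62565453-62565927, fold 4.89, -log10 q 2.53) began 439 bp after MIR133A2 and ranked 5 among the WT peaks of these chromosomes. DNAJC12KO peaks lay at other places of the MIR1-1HG locus. One covered the MIR1-1HG start shown above, and another (chr20:62567271-62567705, fold 3.59) began 2257 bp after MIR133A2. The 7 peaks of this stretch, 4 DNAJC12KO and 3 WT, did not overlap, and no protein-coding gene lay within 3 kb of it. The WT peak in MYH7B (chr20:34993355-34993659) lay 2857 bp from MIR499A and had the highest fold of the WT peaks here, 5.12. MYH7B also carried 3 DNAJC12KO peaks, none of them within 3 kb of MIR499A. Over all 99 microRNA hairpins annotated on these chromosomes, 3 had a DNAJC12KO peak within 3 kb and 9 a WT peak. Neighbouring hairpins can count the same WT peak, as MIR499A and MIR499B did, and MIR296 and MIR298. The share over the hairpins of all chromosomes is not known here, so these counts have no background to be read against.

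Chromosome 20 carried 106 DNAJC12KO and 50 WT peaks, chromosome 21 carried 48 DNAJC12KO and 22 WT peaks, and chromosome 22 carried 85 DNAJC12KO and 63 WT peaks. The 3 chromosomes held 8.71% of the DNAJC12KO peaks on assembled chromosomes (interval 7.68 to 9.83%) and 6.97% of the WT peaks (5.88 to 8.20%), with 6.11% of the protein-coding genes. Per Mb of annotated span, that was 1.72 DNAJC12KO and 0.972 WT peaks, against 0.917 DNAJC12KO and 0.660 WT peaks on the other chromosomes. The ratio of DNAJC12KO to WT peaks was 2.12 on chromosome 20 and 2.18 on chromosome 21, which ranked 3 and 2 of the 20 chromosomes that carry 20 WT peaks or more. On chromosome 22 it was 1.35, rank 16, close to the 1.42 of the whole lists. With both whole lists cut to equal length by -log10 q, 171 DNAJC12KO and 135 WT peaks remained on the 3 chromosomes. Among peaks with a -log10 q from 2 upwards the order was the other way round, with 17 DNAJC12KO and 22 WT peaks.

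**Figure D1:**
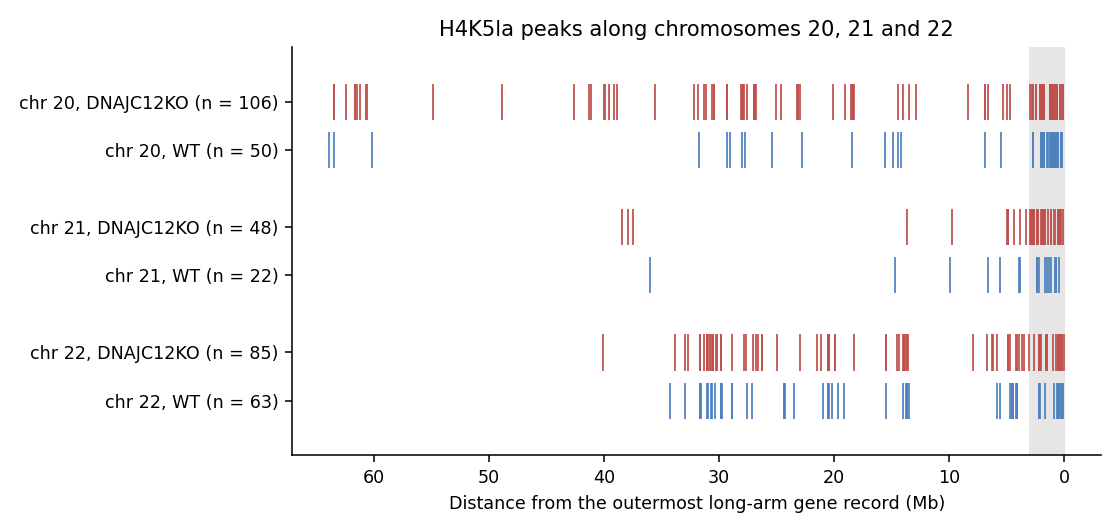
Each tick is a peak, placed by its distance in Mb from the outermost gene record of the long arm, with DNAJC12KO above WT for each chromosome and the last 3 Mb shaded. Ticks crowd in the shaded stretch of chromosomes 20 and 21, and chromosome 20 has DNAJC12KO ticks over its middle where WT has few.

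Peaks of both lists gathered at the long-arm ends. The 3 Mb up to the outermost gene record of the 3 long arms held 101 DNAJC12KO peaks (42.3%, interval 35.9 to 48.8%) and 65 WT peaks (48.1%, 39.5 to 56.9%). On chromosome 20 the end held 42 of 106 DNAJC12KO peaks (39.6%, interval 30.3 to 49.6%) and 33 of 50 WT peaks (66.0%, 51.2 to 78.8%), with 12.1% of the chromosome's protein-coding genes. With 1 library per genotype these intervals describe counting error within each list and do not test the genotypes against each other. On chromosome 21 the end held 37 of 48 DNAJC12KO peaks (77.1%) and 15 of 22 WT peaks (68.2%), with 23.1% of the genes. On chromosome 22 it held 22 of 85 DNAJC12KO peaks (25.9%) and 17 of 63 WT peaks (27.0%), with 8.88% of the genes. At these long-arm ends the share of peaks exceeded the share of genes in both lists. At the short-arm ends of chromosomes 20 and 21 it did not. The short-arm end of chromosome 20 held 6 DNAJC12KO peaks (5.66%) and 2 WT peaks (4%), with 10.2% of the genes, and that of chromosome 21 held none, with 7.14% of the genes. That of chromosome 22, where no protein-coding gene is annotated, held 1 DNAJC12KO and 0 WT peaks.

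**Figure D2:**
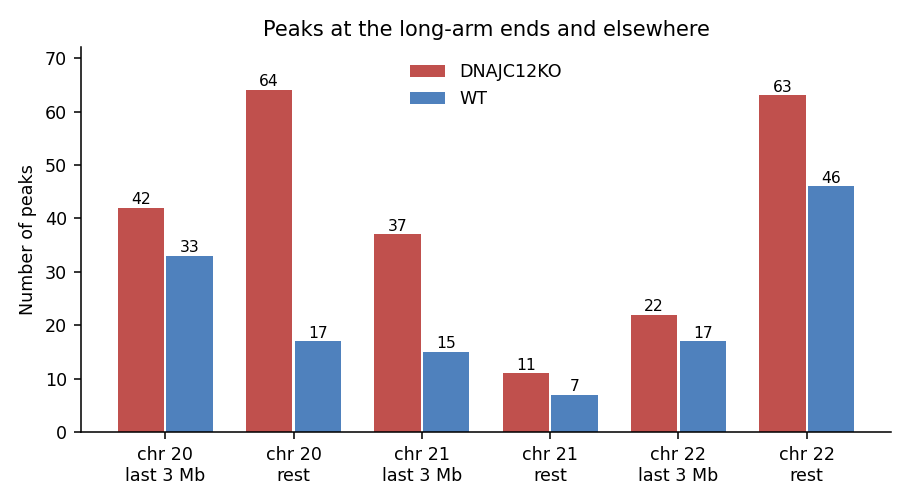
Bars give the number of peaks in the last 3 Mb of each long arm and on the rest of the chromosome, DNAJC12KO left of WT. The rest of chromosome 20 shows the widest gap, 64 DNAJC12KO against 17 WT peaks, and its end a narrow one, 42 against 33.

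The ratio of DNAJC12KO to WT peaks differed most between places on chromosome 20 and least on chromosome 22. Away from its long-arm end, chromosome 20 had 64 DNAJC12KO and 17 WT peaks, a ratio of 3.76, against 1.27 at the end. In bins of 5 Mb, 0 to 5 Mb held 9 DNAJC12KO and 3 WT peaks, and 30 to 35 Mb held 9 DNAJC12KO and 2 WT peaks. The stretch from 5 to 30 Mb is the run of bins without a WT peak. The absence of WT peaks there thus follows from its limits. It held 11 DNAJC12KO peaks. Those 11 included peaks inside MACROD2, an ADP-ribosyl hydrolase gene (chr20:15470641-15470933, fold 3.88), PAX1, a developmental transcription factor gene (chr20:21710139-21710431, fold 3.87), and NINL, a centrosomal gene (chr20:25477160-25477690, fold 4.07), named after their values were seen. On chromosome 21 the ratio was 2.47 at the long-arm end (37 DNAJC12KO, 15 WT) and 1.57 elsewhere (11 DNAJC12KO, 7 WT). Without the 21p ribosomal DNA peak, described below, the ratio elsewhere was 1.43. On chromosome 22 it was 1.29 at the end and 1.37 elsewhere. Whether these ratios differ was not tested.

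Peaks of both lists also ran together in clusters, defined as at least 5 peaks with gaps of at most 50 kb. There were 17 clusters of 44.3 to 264 kb, 10 of them in the terminal 3 Mb, and they held 67 DNAJC12KO peaks (28.03%) and 65 WT peaks (48.1%). The widest, chr20:62216712-62481104, held 11 DNAJC12KO and 7 WT peaks, none overlapping. Of these, 7 DNAJC12KO and 6 WT peaks lay inside or within 3 kb of protein-coding genes, namely HRH3, a histamine receptor gene, OSBPL2, an oxysterol-binding protein gene, ADRM1, a ubiquitin receptor gene of the proteasome, LAMA5, a laminin chain gene, CABLES2 and GATA5, a transcription factor gene. The cluster chr22:50227548-50315139 held 5 DNAJC12KO and 7 WT peaks at TUBGCP6, a gamma-tubulin complex gene, MAPK12, a stress kinase gene, PLXNB2, a semaphorin receptor gene, and DENND6B. Towards the end of chromosome 20, chr20:63180319-63349459 held 4 DNAJC12KO and 6 WT peaks, of which 3 DNAJC12KO and 4 WT peaks lay inside or within 3 kb of BIRC7, NKAIN4, ARFGAP1, COL20A1 or CHRNA4, a nicotinic receptor subunit gene.

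Some clusters were nearly those of 1 genotype. On chromosome 21, chr21:44819072-44980065 held 9 DNAJC12KO peaks and 1 WT peak, at SUMO3, PTTG1IP, ITGB2, a leukocyte integrin gene, and SLX9, a gene of ribosome assembly. The single WT peak there lay in SLX9 (chr21:44975993-44976601, fold 3.98). On chromosome 22, chr22:46254441-46364903 held 6 WT peaks and no DNAJC12KO peak, at PKDREJ, TTC38, GTSE1, a microtubule-binding cell cycle gene, and CELSR1, a planar polarity cadherin gene. Beside these, chr21:44286475-44351780 held 3 DNAJC12KO and 6 WT peaks at AIRE, PFKL, CFAP410 and TRPM2, a cation channel gene. A stretch without protein-coding genes, chr20:63080459-63129325, held 4 DNAJC12KO peaks and 1 WT peak near HAR1A and HAR1B, non-coding RNA genes that contain a human accelerated region. Its strongest peak was from the DNAJC12KO list (chr20:63096045-63096407, fold 4.55) and lay 5.07 kb from the HAR1A start.

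The ribosomal DNA of 21p is described apart, although its single peak is a member and is counted in the totals above. The acrocentric short arms carry tandem repeats of the ribosomal RNA precursor gene, of which the assembly holds only some copies, so reads of many copies can map to the same place. RefSeq places 12 ribosomal RNA records on chromosome 21, among them the 3 precursors RNA45SN1, RNA45SN2 and RNA45SN3, and the stretch from 50 kb before the first to 50 kb after the last was chr21:8155988-8496572. It held 1 DNAJC12KO peak, chr21:8234306-8234646, and no WT peak. That peak lay 15.0 kb from RNA45SN2 and 4.59 kb from the pseudogene CDC27P9, and no ribosomal RNA record had a peak within 3 kb in either list. Its fold of 1.91 was the lowest of the 374 peaks and its -log10 q of 5.91 the highest. Inferred from its fold and -log10 p, its pileup was 134 fragments over a background of 69.5. Outside the stretch no peak of these chromosomes exceeded 13.8 fragments (DNAJC12KO) or 13.0 fragments (WT). Over so high a background a small ratio has a small q value, so this fold is not comparable with the others. Whether reads of other repeat copies contribute to the pileup was not tested. Without that peak, 238 DNAJC12KO peaks are left, 47 of them on chromosome 21 with a ratio of 2.14 to the WT peaks, and 10 of these lie away from the long-arm end.

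The rest of 21p was sparse. The DNAJC12KO list had a peak in LINC01666 (chr21:8764032-8764537, fold 3.61) and another at chr21:9246367-9247241 (fold 3.97, -log10 q 2.26), 77.8 kb from the nearest record. The WT list had 1, at chr21:10731380-10732018 (fold 3.83). Below the long arm this made 3 DNAJC12KO peaks and 1 WT peak, with 45 DNAJC12KO and 21 WT peaks on the long arm.

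**Figure D3:**
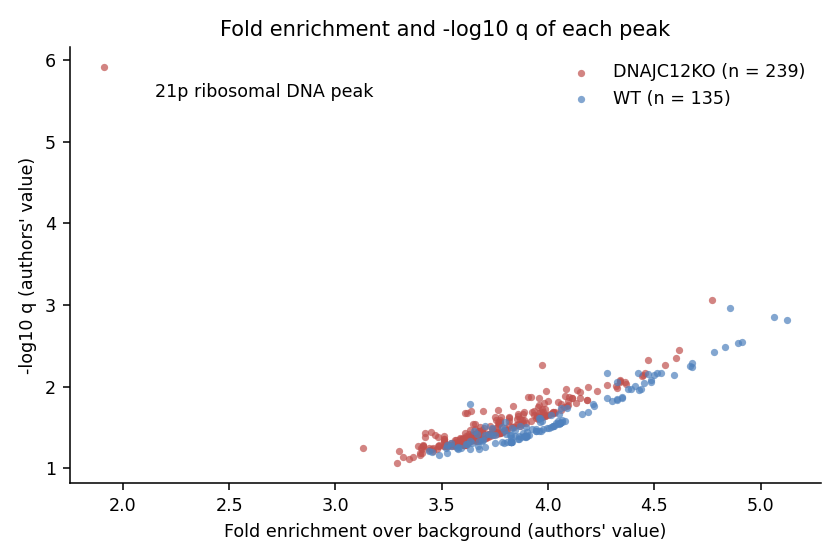
Each point is a peak of chromosomes 20 to 22, with the authors' fold enrichment on the horizontal and -log10 q on the vertical axis. The 21p ribosomal DNA peak stands alone at a fold of 1.91 and a -log10 q of 5.91, and the remaining points follow a narrow band in each list, up to a fold of 4.77 for DNAJC12KO and 5.12 for WT.

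Peaks were otherwise short and close to the threshold. Over all members, median width was 447 bp for DNAJC12KO and 438 bp for WT peaks, and together the DNAJC12KO peaks covered 117 kb and the WT peaks 67.5 kb. Median fold was 3.73 for DNAJC12KO and 3.91 for WT peaks, with a median -log10 q of 1.46 in DNAJC12KO and 1.49 in WT. The value pair found most often in the DNAJC12KO list, a fold of 3.61, corresponded to 8.00 inferred fragments over a background of 1.496. That of the WT list, a fold of 3.82, corresponded to 8.00 fragments over 1.35. An inferred pileup of at most 12 fragments was found for 98.7% of DNAJC12KO and 98.5% of WT peaks. Most listed places thus rest on few inferred fragments above the background.

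Over the 3 chromosomes pooled, stronger peaks made up a larger share of the WT list, and for -log10 q chromosome 20 carried this. Values of -log10 q from 2 upwards were found for 17 of 239 DNAJC12KO peaks (7.11%, interval 4.20 to 11.1%) and 22 of 135 WT peaks (16.3%, 10.5 to 23.6%), with intervals that overlap slightly. On the other chromosomes the shares were 10.3% of DNAJC12KO (9.10 to 11.5%) and 9.99% of WT peaks (8.64 to 11.5%). Chromosome 20 held 15 of those 22 WT peaks, 30% of its 50 (interval 17.9 to 44.6%), against 6 of its 106 DNAJC12KO peaks (5.66%, 2.11 to 11.9%). On chromosome 21 the shares ran the other way, with 6 of 48 DNAJC12KO peaks (12.5%), the ribosomal DNA peak among them, and 2 of 22 WT peaks (9.09%). On chromosome 22 they were close, with 5 of 85 DNAJC12KO peaks (5.88%) and 5 of 63 WT peaks (7.94%). A fold of at least 4 was reached by 17.99% of DNAJC12KO peaks (13.3 to 23.5%) and 40.7% of WT peaks (32.4 to 49.5%), against 17.3% of DNAJC12KO and 27.4% of WT peaks (25.3 to 29.5%) elsewhere. The median inferred background moved with this. It was 1.65 fragments for DNAJC12KO and 1.43 for WT peaks here, and 1.77 for DNAJC12KO and 1.66 for WT peaks on the other chromosomes, and a lower background gives a higher fold at the same pileup. Its part in the difference was not tested.

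The genotypes shared few peaks. By at least 1 bp, 4 of 239 DNAJC12KO peaks (1.67%, interval 0.458 to 4.23%) and 4 of 135 WT peaks (2.96%, 0.813 to 7.41%) overlapped a peak of the other list. On the other chromosomes 6.75% of DNAJC12KO peaks (5.798 to 7.80%) and 9.32% of WT peaks (8.02 to 10.8%) did, which are higher shares than on chromosomes 20 to 22 in both lists. Within 10 kb of a peak of the other list lay 18.4% of DNAJC12KO peaks (13.7 to 23.9%) and 34.1% of WT peaks (26.1 to 42.7%), against 30.8% of DNAJC12KO and 40.6% of WT peaks elsewhere. The median distance to the nearest peak of the other list was 107 kb for DNAJC12KO and 31.9 kb for WT peaks. On the other chromosomes it was 39.3 kb for DNAJC12KO and 17.5 kb for WT peaks. The DNAJC12KO list is the longer one, and a longer list offers more peaks to lie near. The part of list length in this difference was not tested.

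**Figure D4:**
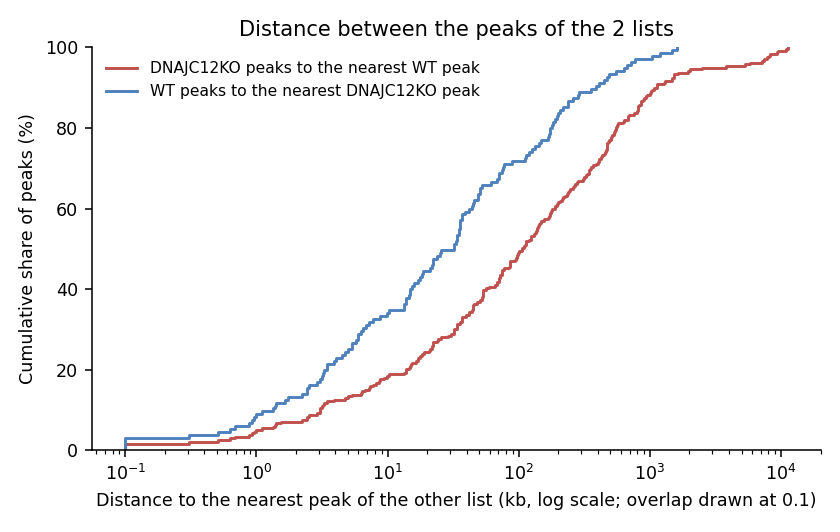
The curves give the cumulative share of peaks, in %, by distance in kb (log axis, overlaps drawn at 0.1) to the nearest peak of the other list. The DNAJC12KO curve, over 239 peaks, runs right of the WT curve, over 135, with medians of 107 kb for DNAJC12KO and 31.9 kb for WT. The lists differ in length, so WT peaks have more peaks of the other list to lie near.

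The 4 overlapping pairs lay in 3 genes. PLXNB2 held a pair of them. Its DNAJC12KO peak chr22:50278129-50279205 (fold 4.34) enclosed the WT peak chr22:50278417-50279134 (fold 3.96), and its DNAJC12KO peak chr22:50283436-50283885 (fold 3.61) lay inside the WT peak chr22:50283424-50284072 (fold 3.82). In COL20A1, a collagen gene, the DNAJC12KO peak chr20:63329857-63330661 (fold 3.58) and the WT peak chr20:63329679-63330116 (fold 4.68) shared 260 bp. In PFKL, the liver form of phosphofructokinase, chr21:44325406-44325926 (DNAJC12KO, fold 3.77) and chr21:44325080-44325446 (WT, fold 3.52) shared 41 bp. A further 8 pairs came within 1 kb without touching. They lay in SPATA2, PFKL, TOP3B, TBC1D10A, PHF21B and SBF1, at EEF1A2 and 8934 bp from NPBWR2. In none of the 4 overlapping pairs did both peaks reach a -log10 q of 2 or a fold of 4.

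Most peaks lay in genes but away from their starts, here as on the other chromosomes. Peak centres fell no more than 3 kb from either end of a protein-coding record for 18.4% of DNAJC12KO (13.7 to 23.9%) and 22.96% of WT peaks (16.2 to 31.0%). Elsewhere inside such a gene lay 56.1% of DNAJC12KO and 63.0% of WT peaks, and inside another annotated gene 7.53% of DNAJC12KO and 5.19% of WT peaks. Outside annotated genes lay 17.99% of DNAJC12KO peaks (13.3 to 23.5%) and 8.89% of WT peaks (4.68 to 15.0%), whose intervals overlap. On the other chromosomes the classes had the same order. There, 22.3% of DNAJC12KO and 25.3% of WT peaks lay at such gene ends, and 58.9% of DNAJC12KO and 60.7% of WT peaks elsewhere inside. Inside another annotated gene lay 4.23% of DNAJC12KO and 3.39% of WT peaks there, and outside annotated genes 14.6% of DNAJC12KO and 10.6% of WT peaks. Within 1 kb of an annotated start lay 10 DNAJC12KO centres (4.18%) and 5 WT centres (3.70%), and the median distance to a start was 15.4 kb for DNAJC12KO and 13.5 kb for WT peaks. On the other chromosomes with listed starts, 5.22% of DNAJC12KO and 5.33% of WT centres lay within 1 kb. The median distance there was 14.6 kb for DNAJC12KO and 12.2 kb for WT peaks. Starts were known only for genes in the RefSeq promoter table.

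Of the 1214 protein-coding genes of these chromosomes, 136 carried a DNAJC12KO peak inside the record or within 3 kb of it (interval of the share 9.48 to 13.1%), against 8.26% over all chromosomes. A WT peak was carried by 99 (8.15%, 6.68 to 9.84%), against 6.49%. Both lists marked 34 of these 1214 genes, and genome-wide 582 of 19866 (2.93%). The 34 genes were 25% of the DNAJC12KO and 34.3% of the WT genes. On the other chromosomes the shared genes were 36.4% of the DNAJC12KO and 46.0% of the WT genes. Of the 34 genes, 3 had overlapping peaks. In the other 31 the nearest pair lay 0.303 to 174 kb apart, with a median of 3.07 kb. Longer genes have more room for peaks, and median record length was 44.1 kb for the shared genes, 33.5 kb for the DNAJC12KO-only, 30.4 kb for the WT-only and 21.5 kb for all 1214 genes. Neighbouring genes can count the same peak. Among peaks of fold 4 or more, the order of the gene counts turned, with 32 DNAJC12KO and 44 WT genes.

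The best-ranked shared gene was EEF1A2, which encodes a form of elongation factor found in neurons and muscle, whose DNAJC12KO peak (chr20:63488825-63489117, fold 4.77, -log10 q 3.06) and WT peak (chr20:63487581-63487899, fold 4.78, -log10 q 2.42) lay 925 bp apart. The DNAJC12KO peak lay inside the record and the WT peak just outside it. MYH7B carried 3 DNAJC12KO peaks (best fold 4.15) and its single WT peak of fold 5.12. LSS, the lanosterol synthase gene of cholesterol synthesis, had a DNAJC12KO peak 20.7 kb into the gene (fold 4.09) and a WT peak 14.1 kb into it (fold 4.33). SLC19A1, the reduced folate carrier gene, had a DNAJC12KO peak of fold 4.10, which lay in COL18A1 as well, and a WT peak of fold 4.35. SBF1, a myotubularin-related gene, had 3 DNAJC12KO peaks, at 11.02%, 17.8% and 31.3% of its length, and 1 WT peak, at 5.77%.

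Several genes held runs of peaks. PLXNB2 carried 2 DNAJC12KO and 6 WT peaks, the WT peaks spread from 29.96% to 88.4% of the gene's length. CDH4, a cadherin gene of neurons, carried 6 DNAJC12KO peaks, from 19.4% to 93.3% of its length, and 2 WT peaks, at 50.5% and 54.6%. WT peaks also outnumbered DNAJC12KO peaks in PFKL (2 DNAJC12KO, 5 WT), LAMA5 (3 DNAJC12KO, 4 WT) and GRAMD4 (2 DNAJC12KO, 3 WT). DNAJC12KO peaks were the more numerous in TAFA5, a gene of a secreted neuronal protein (4 DNAJC12KO, 3 WT), SLX9 (4 DNAJC12KO, 1 WT) and DLGAP4, a postsynaptic scaffold gene (3 DNAJC12KO, 1 WT). SLX9 and PFKL each include peaks just beyond the record, and the WT peaks past the end of PFKL are also those of its neighbour CFAP410. Genes with 3 DNAJC12KO peaks and no WT peak were SRC, a tyrosine kinase gene, PLCG1, a phospholipase gene of growth factor signalling, PDXK, the pyridoxal kinase gene, AGPAT3, a phospholipid acyltransferase gene, ITGB2, and PCNT, the pericentrin gene of the centrosome. TTC38 had 3 WT peaks and no DNAJC12KO peak. In all, 13 genes had at least 3 DNAJC12KO peaks and 7 at least 3 WT peaks.

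Among genes of the DNAJC12KO list alone, 102 in number, the best-ranked were ADRM1 (fold 4.34), SIGLEC1, a macrophage lectin gene (4.36), AGPAT3 (4.28) and PCNT (3.99). The ADRM1 peak lay within 3 kb past the end of its record, not inside it. That peak lay inside LAMA5, a gene with peaks in both lists. PLCG1 (4.15), TBC1D22A (4.08), BRD1, a chromatin reader gene (3.91), and CTSZ, a lysosomal protease gene (4.10), followed. The CTSZ peak, chr20:59006299-59006619, was near a start, at 0.795 kb. Among the 65 genes of the WT list alone, the leading ones had folds of 4.28 to 4.91. They included PREX1, a Rac activator gene (4.86), PPM1F, a phosphatase gene (4.91), PPP1R16B (4.67), CHD6, a chromatin remodeller gene (4.68), PISD, a mitochondrial phospholipid synthesis gene (4.51), TPST2 (4.53) and CFAP410 (4.28). A gene of 1 list could have a peak of the other nearby, as CFAP410 did, with a DNAJC12KO peak 3.02 kb away. Of the 102 genes, 4 had a WT peak within 10 kb, and of the 65, 7 had a DNAJC12KO peak within 10 kb.

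With 8 to 28 members each, the gene lists say little singly. The lists and their members were chosen with earlier results of these data known. Their shares thus cannot be judged against the background shares of 8.26% for DNAJC12KO and 6.49% for WT. The counts that follow only describe the members. Of 24 genes of neuronal excitability and synapses, 5 had a DNAJC12KO peak, 7 a WT peak and 4 both. EEF1A2 led, and SHANK3, a postsynaptic scaffold gene, had 1 peak in each list, near its far end in DNAJC12KO (fold 3.77) and 3.98 kb from its start in WT (fold 4.39). Of 16 extracellular matrix genes, 7 had a DNAJC12KO peak and 4 a WT peak, with COL20A1 and LAMA5 in both, and COL18A1 (best fold 4.10) and MATN4 (3.95) in DNAJC12KO only. The MATN4 peak lay outside its record, 1.14 kb from its nearest annotated start, and inside the neighbouring gene RBPJL. Of 13 motor and actin genes, 5 had a DNAJC12KO peak and 3 a WT peak. MYH7B and MICAL3 had peaks in both lists, MYH9 in DNAJC12KO only (fold 3.92) and MYL9 in WT only (3.79).

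Lactate and its supply were represented by 8 genes of glycolysis, lactate and acyl-CoA supply, of which 3 had a DNAJC12KO peak and 1 a WT peak. PFKL was the shared one, and SLC25A1, the mitochondrial citrate carrier gene (fold 3.65), and CPT1B, a carnitine palmitoyltransferase gene (3.51), had a DNAJC12KO peak only. The SLC25A1 peak lay 0.726 kb outside its record. Of 15 genes of growth factor and developmental signalling, 4 had a DNAJC12KO peak, among them SRC (best fold 4.09), GNAZ (3.92) and WNT7B (3.70), and PTK6 alone had a WT peak (4.16). Of 16 genes of cell cycle and replication, E2F1 (3.93), CDC45 (3.90) and RTEL1 (3.77) had a DNAJC12KO peak and none had a WT peak. NOP56, a gene of ribosomal RNA modification, was the only one of 12 ribosome and proteasome genes with a peak, in DNAJC12KO (4.11). Its 2 peaks lay past the end of its record and inside the neighbouring gene IDH3B. ADRM1 was not on that list. Of 17 genes of chromatin and DNA methylation, BRD1 and PRDM15 had a DNAJC12KO peak and DIDO1 a WT peak.

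The lists tied to chromosome disorders were scattered too. Of 28 genes of the recurrent deletion region on the proximal long arm of chromosome 22, 6 had a DNAJC12KO peak and 4 a WT peak, with LZTR1 in both. TANGO2 (fold 4.32), GNB1L (3.96) and CLTCL1 (3.92) had WT peaks only. Of 24 chromosome 21 genes studied in Down syndrome, 4 had a DNAJC12KO peak, led by PCNT and TRAPPC10 (3.84), and 2 a WT peak, SIM2 (3.799) and DSCAM (3.62). No gene of that list had both.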

How the data were processed

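ChIP-seq of H4K5la was done in SH-SY5Y cells, with 1 immunoprecipitated and 1 input library per genotype. Peaks were called with MACS2 2.2.6 on the build hg38, per the submitters' processing notes; the aligner, read filters, calling options, control library and any spike-in scaling remain not given in the sources used here. Each of the 2 lists was taken as that of the immunoprecipitated library of its genotype, because the sample descriptions name it for input and immunoprecipitated library alike. The deposited values per peak are a fold enrichment (a linear ratio), a -log10 p, a -log10 q and a score, all as the authors' peak caller wrote them; the score is 10 times the -log10 q and was not used further. The columns of other samples numbered 0. Lists hold no counts, so depth and the precision it gives are unknown.

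Genes came from RefSeq (GRCh38.p14), with 58961 of 59792 records used, those on assembled chromosomes, and 831 left out; 19866 of those used were protein-coding, 1214 of them on chromosomes 20 to 22. Strand and starts were known only for the 875 of these 1214 that matched the RefSeq promoter table. Chromosome ends were set at the outermost gene record. A pileup k over a background b was inferred from (k + 1)/(b + 1) = fold and the Poisson upper tail for p; the values are approximate, since each deposited value averages a whole broad peak. The counting and the inference were tested on simulated data. Overlap needed at least 1 bp. Python 3.11.15, numpy 2.4.6, scipy 1.17.1, pandas 2.3.3 and matplotlib 3.10.9 were used.

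Named genes were the 8 with the highest -log10 q in each of the DNAJC12KO-only, WT-only and shared sets, those with overlapping peaks or at least 3 peaks in a list, up to 4 members of each gene list, and the gene nearest to each of the 5 top peaks of each list. Genes named only for a cluster, for a promoter window or for a peak from 5 to 30 Mb of chromosome 20, and the microRNAs, were picked with their values in view. Some genes that meet this rule are not reported here. The members and the lists were chosen with earlier results of these data known. Alternatives were stricter cuts, lists of equal length, and other overlap rules and windows.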

Additional observations from a re-analysis of the deposited data

Results flagged for a closer look

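Besides the assembled chromosomes, the DNAJC12KO list held 5 peaks on an unlocalised sequence of chromosome 22, with folds of 2.67 to 3.82 and -log10 q values of 1.18 to 2.38. The WT list held 0 there. They draw attention because signal appeared in data that the comparisons leave out.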

How the results depend on the processing

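Of 51 alternative values, 24 stayed within 1.5 times the reported one, among them all those for lists of equal length and for other gene windows. With a -log10 q of at least 2, the 3 chromosomes kept 17 DNAJC12KO and 22 WT peaks, so the order of the genotypes turned round. Of these, 13 DNAJC12KO and 12 WT peaks lay in the terminal 3 Mb, 0 DNAJC12KO and 0 WT peaks overlapped, and 11 DNAJC12KO and 22 WT genes carried a peak, 2 of them in both lists. With a fold of at least 4 there were 43 DNAJC12KO and 55 WT peaks. In the terminal 3 Mb lay 25 DNAJC12KO and 28 WT peaks, 0 DNAJC12KO and 0 WT peaks overlapped, the ribosomal DNA stretch had 0 DNAJC12KO peaks, and 32 DNAJC12KO and 44 WT genes carried a peak, 10 of them in both lists. A stricter cut leaves fewer peaks by construction; why the WT list keeps more was not tested. Shared peaks numbered 2 in each list with an overlap of 50% of both peaks, and 12 in each within 1 kb. The terminal 1 Mb held 38 DNAJC12KO and 33 WT peaks. The whole of chromosome 21 below the long arm held 3 DNAJC12KO peaks and 1 WT peak. No paired analysis was possible because the genotypes share only 1 replicate number and no result comes from a test; with 1 library per genotype none could be left out. Unknown depth limits every count.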
